A study of Mus musculus with 24 samples.

Results

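The comparison described here is that of Ift20 mutant with control retinal pigment epithelium (RPE) of mice at postnatal day 11 (P11), chosen by the genotype and age in the sample labels. It holds 8 of the 24 libraries of the study, 4 of mutant and 4 of control tissue, and each was read across all genes. Controls are labelled Cre positive, the driver being Dct-Cre, with no floxed allele named. Mutants are labelled as floxed for Ift20 and Cre positive, so the driver is shared by all 8 libraries. The background strain is labelled mixed, the sex was not collected, no treatment was given, and the tissue is labelled as isolated RPE cells. The other 16 libraries are the same 2 genotypes at postnatal day 29 (P29) and 3 months (3M), and they enter this account where the P11 effect is set beside the later ones. The Dct promoter is active in pigment cells of neural crest and optic cup origin, so recombination is not limited to the RPE by the driver. The labels number the libraries as biological replicates and do not say how many animals gave RNA to each. The p-values of the gene tests therefore measure the spread between libraries, pooled over all 24.

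IFT20 is a subunit of the intraflagellar transport particle, the carrier that moves cargo along the axoneme of the primary cilium, and it also sits at the Golgi, where membrane cargo is sorted towards the cilium. The RPE is a single layer of pigmented cells between the photoreceptors and the choroidal vessels. It regenerates the visual chromophore, takes up shed outer segments, moves lactate, ions and water, and lays down part of Bruch's membrane. Its cells carry a primary cilium during differentiation. P11 lies shortly before mouse eyes open, when photoreceptor outer segments are still growing.

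Immediate early genes, which are transcribed within minutes of a stimulus from promoters bound by CREB and by serum response factor, form the list with the lowest median among the pathways read here, and the promoters of 3 of its members that fell are shown for that reason. Each is the 250 bases before the RefSeq start (GRCm38.p6), written 5′ to 3′ along the gene. Capitals mark the palindromic cAMP response element TGACGTCA in Dusp1 and Btg2 and a CArG box, the site of serum response factor, in Zfp36. Tyrp1, a melanin gene that fell, is shown with its E-box CATGTG in capitals, the core of the site read by MITF.
Zfp36: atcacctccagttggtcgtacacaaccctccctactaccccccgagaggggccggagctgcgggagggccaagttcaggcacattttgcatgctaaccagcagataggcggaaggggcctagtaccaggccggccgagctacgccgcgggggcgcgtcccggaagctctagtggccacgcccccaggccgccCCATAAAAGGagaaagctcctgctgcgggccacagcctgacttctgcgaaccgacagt
Dusp1: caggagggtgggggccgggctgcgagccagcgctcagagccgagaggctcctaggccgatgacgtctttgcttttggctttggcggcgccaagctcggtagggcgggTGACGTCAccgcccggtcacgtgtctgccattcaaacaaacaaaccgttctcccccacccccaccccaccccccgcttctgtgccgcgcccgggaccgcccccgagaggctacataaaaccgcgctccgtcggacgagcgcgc
Btg2: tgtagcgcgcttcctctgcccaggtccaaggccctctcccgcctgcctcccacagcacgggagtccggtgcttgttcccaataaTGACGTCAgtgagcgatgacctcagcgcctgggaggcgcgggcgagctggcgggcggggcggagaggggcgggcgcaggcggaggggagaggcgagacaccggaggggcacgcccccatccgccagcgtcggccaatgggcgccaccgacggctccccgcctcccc
Tyrp1: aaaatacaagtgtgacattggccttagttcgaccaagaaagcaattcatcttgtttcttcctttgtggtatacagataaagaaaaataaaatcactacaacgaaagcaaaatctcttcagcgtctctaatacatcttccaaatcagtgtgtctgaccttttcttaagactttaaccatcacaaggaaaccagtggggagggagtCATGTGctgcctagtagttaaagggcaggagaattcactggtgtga
These windows lie at chr7:28379229-28379478 (Zfp36, minus strand), chr17:26508473-26508722 (Dusp1, minus strand), chr1:134079156-134079405 (Btg2, minus strand) and chr4:80833963-80834212 (Tyrp1, plus strand). The motifs were searched on both strands. Of the 24 immediate early genes, 20 had a promoter entry: 2 held the cAMP response element (Btg2 and Dusp1), against 1.55% of all 32851 promoter windows of that length, and 2 held a CArG box (Egr2 and Zfp36), against 1.47%. Of the 15 melanin and melanosome genes, 10 had an entry: CATGTG was in 5 (Dct, Oca2, Slc24a5, Tyr and Tyrp1), against 12.3% of all windows, and the E-box CACGTG in 2 (Mlph and Rab27a), against 6.02%. Of the genes with CATGTG only Tyrp1 was called lower, and of those with a CArG box only Zfp36. Btg2, Dusp1, Mlph and Rab27a, which hold the other 2 motifs, were all called lower. These matches describe the sequence only.

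Total gene counts ran from 1513440 to 2889946 in controls and from 1978838 to 2399951 in mutants, and 3 counts, the least that is taken as a level here, correspond to between 1.00 and 1.90 CPM, a gene's count scaled to the library's total. All levels below are CPM scaled by TMM factors. The mitochondrial share of gene counts was 7.81% ± 0.703 (SD, n = 4) in controls and 10.8% ± 0.375 (SD, n = 4) in mutants, and reads outside any annotated feature made up 23.4% ± 0.577 and 27% ± 0.396 (SD, n = 4 each). Gm42418, a locus that overlaps ribosomal RNA sequence, took 16.2% to 18.3% of gene counts in controls and 12.5% to 14% in mutants. Multiply aligned reads made up 36.4% ± 0.630 of entries in controls and 34.4% ± 0.461 in mutants (SD, n = 4 each). The number of genes with a count was 13822 ± 311 in controls and 14662 ± 46.0 in mutants (SD, n = 4 each). For the mitochondrial, no-feature and multiply aligned shares and the number of genes, the groups did not overlap, with an exact permutation p of 0.0286, the smallest that 4 against 4 allows, and 0.0400 after adjustment over 7 measures. Their part in the differences below was not tested. Control replicate 4 stood apart within its group for mt-Nd2 and Malat1. Xist, the RNA of the inactive X chromosome, was counted in all 8 libraries, from 80.0 to 140 CPM in controls and from 207 to 223 CPM in mutants, and so were the Y-linked genes Ddx3y, Eif2s3y, Kdm5d and Uty, so that transcripts of the inactive X and of the Y were present in every library. Xist was higher in mutants (log2 fold change 0.99, SE 0.19, adjusted p = 0.00198), whereas Ddx3y was at 72.8 to 102 CPM in controls and 61.7 to 80.8 in mutants (adjusted p = 0.214). A sex score, the log2 level of Xist less the mean log2 level of these Y-linked genes, was 1.29 to 2.01 in controls and 2.65 to 2.88 in mutants. The groups did not overlap on it, so a fit with this score as a covariate cannot fully separate it from genotype at P11.

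The RPE identity of the libraries was checked on its markers. Ttr, a carrier of retinol and thyroxine made by the RPE, lay between 11776 and 12369 CPM in controls and between 12028 and 12832 in mutants, and the 10 RPE markers summed to 19593 to 20339 CPM in controls and 18727 to 19682 in mutants. Ttr makes up most of that sum. Of the 9 RPE markers tested, 6 were called lower and 0 higher, with a median log2 fold change of -0.26. Markers of other cells were present too: rod markers summed to 16702 to 17916 CPM in controls and 20294 to 20710 in mutants, and haemoglobin and other erythrocyte genes to 26967 to 29054 and 28957 to 33386. Of the globins, Hba-a2 was higher in mutants, at 5350 to 6268 CPM against 4204 to 4836 (adjusted p = 3.66e-05), and Hbb-bs overlapped, at 13565 to 14993 against 12802 to 14496 (adjusted p = 0.976). Hba-a2 has a near-identical copy, so its level is uncertain. The deleted gene came next. Ift20 was at 106, 93.8, 60.7 and 150 CPM in the 4 controls and at 76.7, 94.2, 90.7 and 80.8 in the 4 mutants. The groups overlap, and the difference did not pass the test (log2 fold change -0.27, SE 0.16, adjusted p = 0.353). The reads come from the 3' ends of transcripts, and the labels do not say whether the floxed exons lie there, so this level does not check the deletion.

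Of 12303 genes tested, 401 were higher in mutants (3.26%) and 452 were lower (3.67%), at a Benjamini-Hochberg adjusted p under 0.05 in edgeR. Most changes were small: the median log2 fold change was 0.58 among the genes called higher and -0.69 among those called lower, and 69 rose and 139 fell by more than 1 on the log2 scale. The median of all tested genes was -0.00. In 296 of the 401 and in 312 of the 452 genes the 4 mutant values lay wholly beyond the 4 control values, which over all tested genes held for 5.36% upwards and 4.97% downwards. With each of the 8 libraries left out in turn, 151 of the higher and 208 of the lower genes passed every time. A test against a change of at least 1.5-fold passed 4 genes upwards and 31 downwards. With voom and quality weights, 325 genes passed upwards and 298 downwards.

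**Figure D1:**
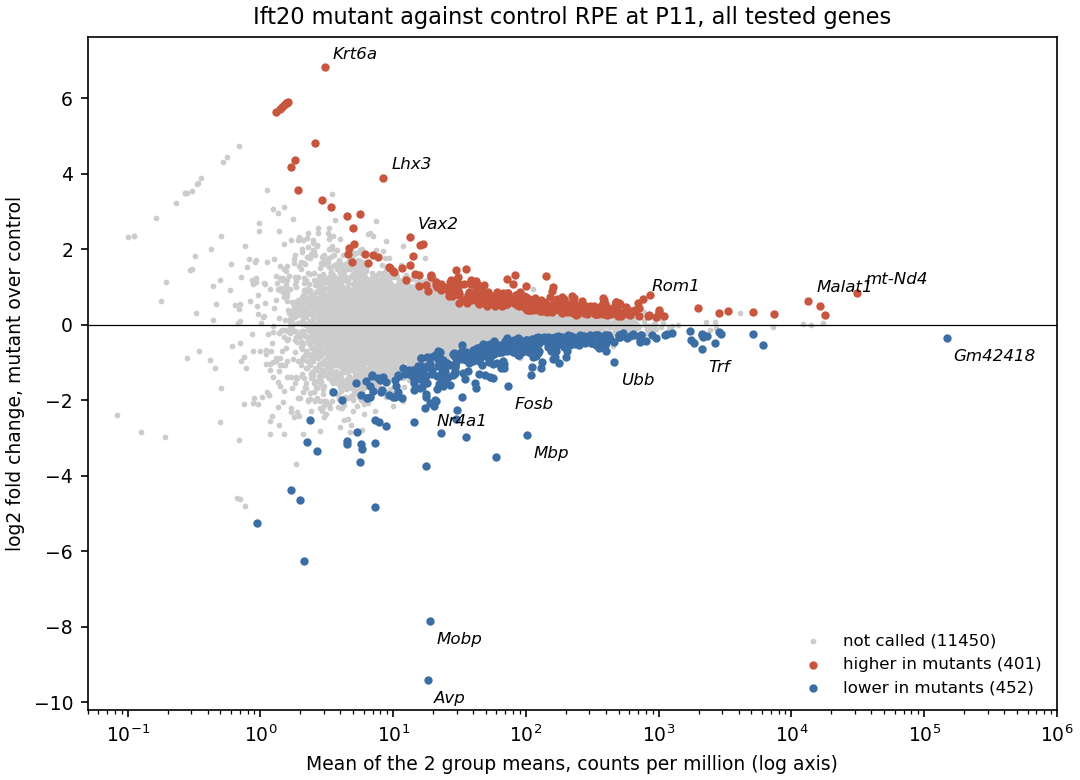
Each point is a tested gene, with the mean of the 2 group means in CPM on a log axis and the log2 fold change of mutant over control on the other axis. The 401 genes called higher and the 452 called lower are coloured, and the largest falls, such as Avp and Mobp, are genes with almost no counts in mutants.

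Immediate early genes fell as a group: 16 of the 22 tested were lower in mutants and 0 were higher, with a median log2 fold change of -1.10. Fosb, a subunit of the AP-1 transcription factor, was at 124, 99.3, 102 and 115 CPM in controls and at 32.9, 51.5, 34.8 and 25.6 in mutants. Every mutant library lay below every control library, and Fosb fell by 1.61 on the log2 scale (SE 0.13, adjusted p = 9.50e-19). Nr4a1, an orphan nuclear receptor induced by calcium and cAMP, was at 32.4, 30.7, 28.5 and 30.3 CPM in controls and at 5.90, 8.72, 7.59 and 6.90 in mutants. Its 2 groups were each tight and far apart (log2 fold change -2.06, SE 0.22, adjusted p = 2.85e-12). Its relative Nr4a2 was at 52.5, 27.7, 31.6 and 30.3 CPM in controls and at 17.7, 13.5, 11.2 and 5.69 in mutants, with control replicate 1 standing high, and fell by 1.61 (SE 0.25, adjusted p = 9.57e-07).

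Jun, which pairs with the Fos proteins, was at 171, 135, 130 and 167 CPM in controls and at 95.8, 94.2, 60.7 and 93.4 in mutants, without overlap (log2 fold change -0.82, SE 0.10, adjusted p = 2.22e-09). The Jun locus overlaps a gene on the other strand, and the sources used here do not give whether the counting used strand. Junb was at 40.4 CPM in control replicate 1 and at 76.6 to 81.2 in the other controls, and at 18.8 to 46.7 in mutants. Its groups therefore overlap through that 1 control library, although the difference passed (log2 fold change -0.94, SE 0.17, adjusted p = 0.000168), and Junb too overlaps a gene on the other strand. Fos itself was at 116, 111, 159 and 80.2 CPM in controls and at 69.8, 73.3, 77.7 and 59.7 in mutants, with control replicate 4 close to the mutants. It fell by 0.73 (SE 0.17, adjusted p = 0.0108), and its adjusted p was 0.0511 without mutant replicate 4 and 0.249 with voom and quality weights. Egr1, a zinc finger factor of the same response, fell by less than the factors above, from 161 to 197 CPM in controls to 125 to 152 in mutants (log2 fold change -0.36, SE 0.08, adjusted p = 0.00214). With the 8 P11 libraries fitted alone its adjusted p was 0.0637.

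The feedback regulators of the response fell with its transcription factors. Dusp1, a phosphatase that switches off MAP kinases and whose promoter holds the cAMP response element shown above, was at 45.5, 39.1, 47.5 and 30.3 CPM in controls and at 10.3, 16.6, 16.5 and 20.3 in mutants. The groups did not overlap, and the fall was 1.34 on the log2 scale (SE 0.19, adjusted p = 1.40e-07). Zfp36, which destabilises AU-rich mRNAs and carries the CArG box shown above, was at 11.0, 37.9, 20.9 and 19.7 CPM in controls and at 4.91, 7.41, 8.49 and 5.28 in mutants, again without overlap (log2 fold change -1.73, SE 0.29, adjusted p = 9.44e-06). Btg2, an antiproliferative factor with the other cAMP response element, overlapped between groups, at 43.0 to 79.5 CPM against 36.6 to 58.5 (log2 fold change -0.56, SE 0.14, adjusted p = 0.00694). It did not pass without control replicate 1 (adjusted p = 0.102) or without mutant replicate 2 (0.0509). Ier2, a nuclear factor of the first response, was at 25.7, 16.2, 22.1 and 33.5 CPM in controls and 6.88, 9.16, 6.25 and 13 in mutants, without overlap (adjusted p = 0.000267). Atf3, a repressor of the ATF family, was near the floor in mutants, at 7.35, 13.2, 1.27 and 4.78 CPM against 0.983, 2.62, 0 and 2.84, and its call (adjusted p = 0.00214) was lost with voom and quality weights (0.249). The Krüppel-like factors Klf2 and Klf4, known for their response to shear stress in endothelium, fell from 61.4 to 106 CPM to 17.4 to 38.0 and from 67.2 to 103 CPM to 35.4 to 43.6 (adjusted p = 2.11e-08 and 2.96e-07). Of the 16 falls in this list, 12 passed with each library left out, 11 passed with voom and quality weights and 11 passed in the fit of the 8 libraries alone. Several of these genes are also transcribed in vessels, whose markers fell in the same libraries, as given below. Their part in the falls was not tested, and in bulk libraries fewer cells of a type and less RNA per cell cannot be told apart.

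**Figure D2:**
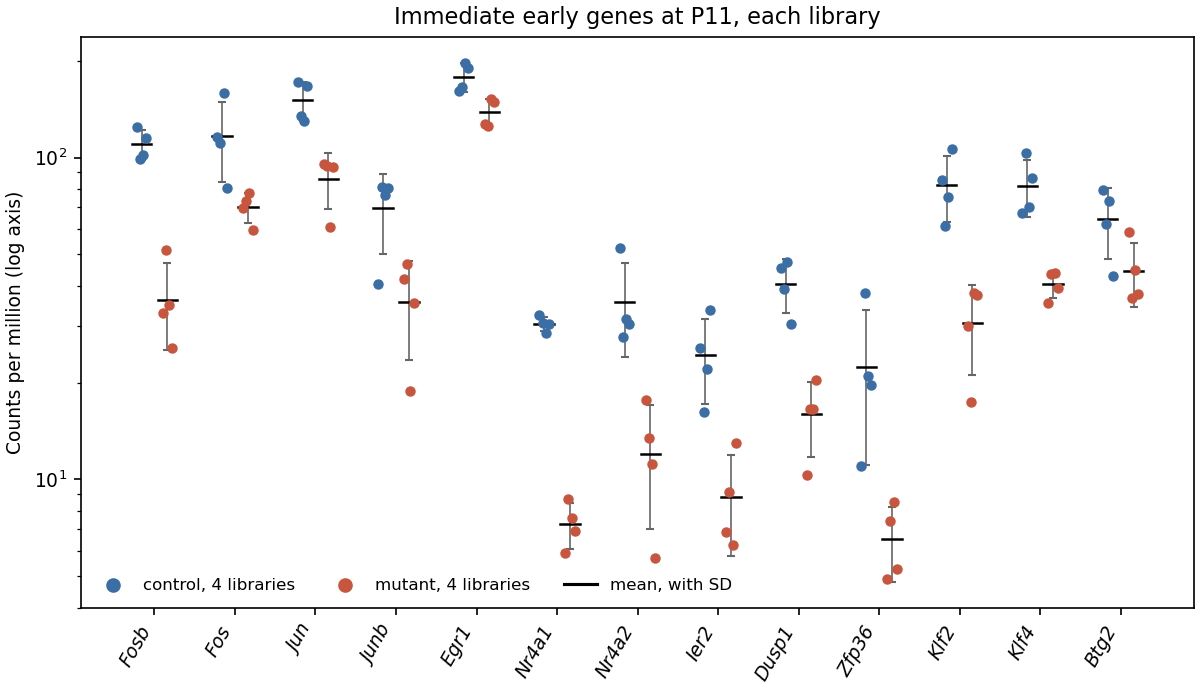
CPM of 13 immediate early genes on a log axis, with 1 point per library, the mean as a bar and the SD as a whisker. For Nr4a1, Fosb and Dusp1 the 4 mutant libraries lie below all 4 control libraries, while Junb and Btg2 overlap.

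Ubb, a polyubiquitin gene of the stress response, fell in the same direction at a higher level, from 641, 575, 708 and 548 CPM in controls to 319, 322, 295 and 309 in mutants. No mutant library came near a control library (log2 fold change -0.99, SE 0.08, adjusted p = 9.50e-19). Actb, cytoplasmic beta-actin and a target of serum response factor, was at 2836 to 3378 CPM in controls and at 2091 to 2499 in mutants (log2 fold change -0.48, SE 0.06, adjusted p = 1.72e-09). In the list of heat shock genes, 2 of 12 rose and 1 fell, with a median of -0.00. Hsp90aa1, the inducible cytosolic chaperone, rose from 827 to 898 CPM in controls to 1092 to 1154 in mutants (adjusted p = 1.66e-06). Cryab, a small heat shock protein that is also a lens crystallin, fell from 182 to 202 CPM to 89.8 to 146 (adjusted p = 1.90e-07). Atf4, the transcription factor of the integrated stress response, rose from 204 to 282 CPM to 284 to 349 (log2 fold change 0.50, SE 0.10, adjusted p = 0.000295), and it was the only 1 of 14 genes in the list of unfolded protein and integrated stress response genes that passed upwards, while 1 passed downwards.

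Genes of the visual cycle, the enzymes and carriers that turn all-trans retinal back into the 11-cis chromophore, were lower by small and even amounts: 7 of 12 passed downwards and 0 upwards, with a median of -0.28. Rpe65, the isomerase at the centre of the cycle, was at 2420, 2424, 2396 and 2407 CPM in controls and at 1950, 1889, 1901 and 1967 in mutants. The spread within each group was a small part of the gap between them (log2 fold change -0.32, SE 0.04, adjusted p = 2.30e-08). Lrat, which makes the retinyl ester that RPE65 uses, was at 471, 369, 381 and 438 CPM in controls and at 329, 321, 344 and 296 in mutants (log2 fold change -0.37, SE 0.07, adjusted p = 4.25e-05). Rlbp1, Rdh5, Rdh10 and Rgr, a carrier of 11-cis retinoids, 2 retinol dehydrogenases and a photoisomerase, fell by 0.25, 0.28, 0.28 and 0.21. Ttr, at the highest level of the list, differed by 0.03 (SE 0.03, adjusted p = 0.684). All 7 falls passed with each library left out. With voom and quality weights the 6 falls named here did not pass, with log2 fold changes between -0.36 and -0.20 and an adjusted p of 0.0709 for Rpe65.

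Pigment genes fell unevenly. Of 14 tested melanin and melanosome genes 6 were lower, 4 of them with each library left out, and 0 were higher, with a median of -0.45. Pmel, which forms the fibrils on which melanin is laid down, was at 2147, 2180, 2272 and 1960 CPM in controls and at 1601, 1485, 1555 and 1455 in mutants, and Tyrp1, a melanosomal oxidase, was at 473, 456, 487 and 451 and at 328, 318, 356 and 333. In both genes the groups lay well apart, with log2 fold changes of -0.49 (SE 0.08, adjusted p = 1.58e-06) and -0.48 (SE 0.09, adjusted p = 6.00e-05). Mitf, the transcription factor of pigment cells, fell from 109 to 144 CPM to 75.5 to 90.7 (log2 fold change -0.56, SE 0.12, adjusted p = 0.000911), and Gpnmb, a melanosomal and lysosomal glycoprotein, from 527 to 639 CPM to 435 to 475 (adjusted p = 0.00393). Tyr, the rate-limiting oxidase of melanin synthesis, overlapped between groups at 125 to 182 and 116 to 160 CPM (adjusted p = 0.589), and so did Dct, the gene whose promoter drives the Cre, at 6948 to 7807 and 6770 to 7418 CPM (adjusted p = 0.410). The 8 melanocyte markers, several of which the RPE shares, summed to 7382 to 8247 CPM in controls and 7105 to 7710 in mutants. Dct makes up most of that sum. Of the 8 markers 2 were called lower and 0 higher, with a median of -0.25 and 7 estimates below 0. The called genes were Ednrb (log2 fold change -2.02) and Sox10 (-0.59), and 1 of the 2 passed with each library left out.

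In the machinery of outer segment uptake and digestion, 5 of 25 lysosomal genes fell and 0 rose (median -0.29). Ctsd, the protease that digests most of the outer segment protein, was at 2419, 2706, 2617 and 2518 CPM in controls and at 2054, 2071, 1988 and 2231 in mutants, without overlap (log2 fold change -0.30, SE 0.05, adjusted p = 1.41e-05). The others included Hexa, a hexosaminidase (log2 fold change -0.73), Ctsl, a cysteine protease (-0.48), and Npc2, a cholesterol carrier (-0.46), and all 5 passed with each library left out and with voom. Cst3, the secreted inhibitor of cysteine proteases and 1 of the more abundant RPE transcripts, fell from 7157, 7239, 8219 and 6405 CPM to 5381, 5200, 5249 and 4125, with mutant replicate 4 the lowest of all (log2 fold change -0.54, SE 0.08, adjusted p = 0.000191). Among 17 genes of outer segment binding and engulfment 2 fell and 1 rose. Itgb5, the integrin subunit that binds outer segments, fell from 84.2, 56.5, 84.8 and 54.2 CPM to 35.9, 32.7, 45.6 and 44.3 (log2 fold change -0.82, SE 0.18, adjusted p = 0.000941). Mertk, the receptor that triggers their engulfment, overlapped between groups, at 106 to 142 and 89.3 to 138 CPM (adjusted p = 0.467).

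Transport across the RPE showed 8 falls and 1 rise among 19 genes (median -0.22), and 7 of the falls passed with each library left out. Slc16a1, the monocarboxylate transporter that carries lactate out of the subretinal space, was at 867, 840, 855 and 819 CPM in controls and at 587, 638, 585 and 641 in mutants (log2 fold change -0.46, SE 0.06, adjusted p = 4.72e-08). Its chaperone Bsg fell from 918 to 1032 CPM to 744 to 855 (log2 fold change -0.27, SE 0.06, adjusted p = 0.00102), so both partners were lower, by unequal amounts. Car14, a membrane carbonic anhydrase, and Slc4a5, a bicarbonate cotransporter, fell by 0.35 and 0.34 (adjusted p = 1.67e-05 and 0.000153). Slco1c1, which carries thyroxine, fell from 55.5 to 77.6 CPM to 34.9 to 51.0 (adjusted p = 0.00210), but not in the fit of the 8 libraries alone (0.0531). Kcnj13, the potassium channel of the apical membrane, was at 149 to 224 CPM in controls and 134 to 155 in mutants (log2 fold change -0.38, SE 0.08, adjusted p = 0.00101), overlapping through control replicate 3, and its adjusted p was 0.0578 in the fit of the 8 libraries alone. Aqp1, a water channel that is also a marker of ciliary body and of vessels, fell from 53.1, 40.3, 39.9 and 72.3 CPM to 22.6, 24.9, 7.59 and 32.5 (log2 fold change -1.23, SE 0.27, adjusted p = 0.00113).

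Trf, which encodes the iron carrier transferrin, had the smallest p of all tested genes. It was at 2586, 2680, 2679 and 2401 CPM in controls and at 1565, 1734, 1643 and 1645 in mutants, 2 narrow groups far apart (log2 fold change -0.65, SE 0.04, adjusted p = 1.06e-23). Transferrin is made by the RPE and also by oligodendrocytes, whose shared markers fell in the same libraries, and Trf overlaps another annotated gene on its own strand. Ftl1, the light chain of ferritin, fell from 436 to 498 CPM to 351 to 406 (log2 fold change -0.33, SE 0.08, adjusted p = 0.00287). These were the 2 genes of 11 in the iron list that passed, both downwards.

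**Figure D3:**
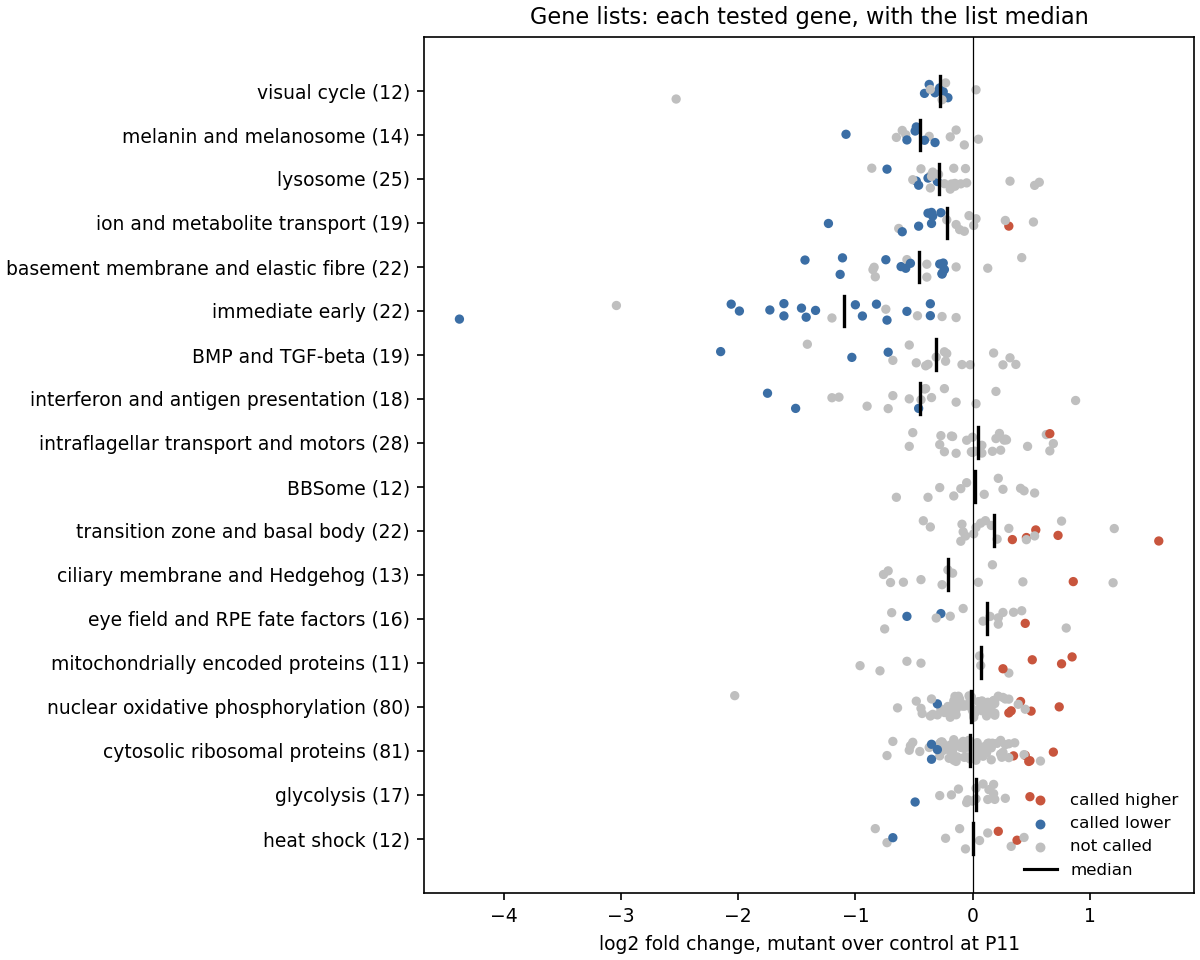
Log2 fold change of each tested gene at P11 in 18 pathway lists, with the number tested in brackets and the list median as a black bar. The immediate early list sits lowest, with a median of -1.10, while the medians of the intraflagellar transport, ribosomal and nuclear oxidative phosphorylation lists lie within 0.05 of 0.

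Among genes of the cilium, the organelle the deleted gene serves, those that passed rose, and most of them were of the transition zone and basal body. Of 28 intraflagellar transport and motor genes 1 was called, Kif3a, a subunit of the anterograde kinesin, at 49.5, 63.2, 39.9 and 44.6 CPM in controls and 77.1, 69.3, 85.8 and 79.2 in mutants (log2 fold change 0.66, SE 0.19, adjusted p = 0.0185). It did not pass without control replicate 3 (adjusted p = 0.0803) without mutant replicate 3 (0.0682) or with the sex score (0.0502). Of 12 genes listed for the BBSome, the coat that carries membrane proteins out of the cilium, edgeR called 0, DESeq2 called 0 and 1 had an unadjusted p under 0.05. Arl13b, a GTPase of the ciliary membrane, was the 1 called gene of 13 in ciliary membrane and Hedgehog signalling, at 31.1 to 56.9 CPM and 65.4 to 98.7 (adjusted p = 0.00554), and it did not pass without control replicate 1 (0.0505) without mutant replicate 4 (0.0512) or with the sex score (0.104). In the list of transition zone and basal body genes 5 of 22 were called higher and 0 lower, with a median of 0.18 and 6 estimates below 0. The list summed to 1615 to 1802 CPM in controls and 2043 to 2335 in mutants, without overlap. Rpgrip1, which was called higher, makes up the largest part of that sum. Cep290, Ahi1 and Rpgrip1 passed with each library left out. Cep290, a Y-link protein of the transition zone, was at 217, 261, 251 and 277 CPM in controls and at 353, 352, 328 and 351 in mutants, without overlap (log2 fold change 0.46, SE 0.11, adjusted p = 0.00446). Ahi1, a partner in the same zone, was at 184, 135, 128 and 159 CPM and at 232, 234, 183 and 240, with mutant replicate 3 just under the highest control (log2 fold change 0.54, SE 0.11, adjusted p = 0.000255). Rpgrip1, which anchors RPGR in the connecting cilium of photoreceptors, rose from 797 to 943 CPM to 1063 to 1174 (log2 fold change 0.34, SE 0.08, adjusted p = 0.00180). Cep83, a protein of the distal appendages that dock the basal body, was at 8.36, 1.80, 7.59 and 8.50 CPM and at 20.1, 20.9, 14.7 and 24.8, without overlap (log2 fold change 1.59, SE 0.42, adjusted p = 0.00865). Rpgr, the partner of RPGRIP1, was at 40.8, 57.1, 40.5 and 49.4 CPM and at 76.7, 64.1, 70.1 and 101 (log2 fold change 0.73, SE 0.24, adjusted p = 0.0421). Cep83 did not pass without control replicate 2, its lowest library (adjusted p = 0.0539), with the sex score (0.0848) or with voom and quality weights (0.0551). Rpgr did not pass without control replicate 1, 3 or 4 or without mutant replicate 1, 3 or 4 (0.0552 to 0.220). These genes are strongly transcribed in photoreceptors, and 8 of 18 rod markers were called higher in the same libraries. Their part was not tested.

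Among other rises, 8 of 18 rod markers were called higher and 0 lower (median 0.13), and 5 of the 8 passed with each library left out. The rest were not called, with log2 fold changes from -0.05 (Gnb1) to 0.21 (Nr2e3), among them Gnat1 (0.04), Pde6a (0.05), Prph2 (0.02) and Nrl (-0.00). Of the genes given next, Aipl1 and Rorb are not in the list. Rom1, a disc rim protein, was at 534, 621, 556 and 640 CPM in controls and at 937, 894, 920 and 1018 in mutants, wholly apart (log2 fold change 0.68, SE 0.08, adjusted p = 6.76e-11). Aipl1, a chaperone of rod phosphodiesterase, rose from 231, 386, 269 and 278 CPM to 476, 520, 433 and 477 (log2 fold change 0.72, SE 0.10, adjusted p = 2.86e-07). Pdc, which binds transducin, rose from 1505 to 1855 CPM to 2087 to 2401 (adjusted p = 0.000252). Rorb, a nuclear receptor of photoreceptor development, rose from 386 to 461 CPM to 584 to 634 (adjusted p = 1.38e-06).

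Several single genes whose RNA or protein is known from the nucleus were called higher. Malat1, a long noncoding RNA held in the nucleus, was at 9590, 9578, 9777 and 13010 CPM in controls and at 15722, 16288, 16532 and 16627 in mutants, with control replicate 4 the control nearest to the mutants (log2 fold change 0.64, SE 0.10, adjusted p = 0.000290). Meg3, an imprinted long noncoding RNA, was at 588, 670, 564 and 715 CPM and at 1100, 1094, 1043 and 1146 (log2 fold change 0.79, SE 0.12, adjusted p = 3.05e-05). Pnisr, a gene of nuclear speckles, was at 277, 259, 298 and 359 CPM and at 456, 452, 478 and 501 (log2 fold change 0.66, SE 0.09, adjusted p = 1.55e-08). In all 3 the groups did not overlap. Arid4b, a subunit of a histone deacetylase complex, Ncor1, a corepressor, Top1, a topoisomerase, Dek and Hmgn1, both chromatin proteins, and Ankrd12 rose by 0.72, 0.57, 0.50, 0.90, 0.57 and 0.50 on the log2 scale. Malat1 did not pass with voom and quality weights (adjusted p = 0.135). Of these 9 genes 6 were among the rises with the smallest p, Malat1 was taken for its level, and Meg3 and Ankrd12 were chosen after their values were seen. No list of such genes was tested. The share of reads in no annotated feature was also higher in mutants, as given above, and whether it bears on these genes was not tested.

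The annotated transcripts of the called genes differed in length and base composition. The longest protein-coding transcript had a median of 4354 bases among the genes that rose, 3142 among those that fell and 3310 among all tested, and a median GC content of 46.7%, 52.6% and 50.2%. In the fifth of genes with the lowest GC content, 33.0% to 44.3%, 5.49% were called higher and 1.76% lower, with a median log2 fold change of 0.08. In the fifth with the highest GC content, 55.9% to 72.8%, 1.43% were called higher and 5.33% lower, with a median of -0.10. The groups between them ran in that order for both shares and for the median. Of the fifth with the longest transcripts 5.96% were called higher, against 2.56% of the shortest, while falls made up 3.27% and 4.57%. A transcript was matched for at least 96.9% of each set, and the median level was 107 CPM in the genes that rose, 64.8 in those that fell and 21.9 in all. These values describe the annotation and the levels beside the calls.

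Mitochondrially encoded transcripts did not move together: 4 of 11 passed upwards and 0 downwards, with a median of 0.07, and 4 had estimates below 0. The transcript of mt-Nd4, a subunit of complex I, was at 18749, 23039, 19270 and 28616 CPM in controls and at 40493, 40986, 41027 and 39122 in mutants, without overlap (log2 fold change 0.85, SE 0.15, adjusted p = 0.00133). The gene mt-Nd2 was at 12043, 12500, 11673 and 18260 CPM and at 20008, 18810, 19772 and 19013, so that control replicate 4 came close to the mutants (log2 fold change 0.51, SE 0.11, adjusted p = 0.00767), and in the fit of the 8 libraries alone its adjusted p was 0.139. The cytochrome b gene mt-Cytb rose from 15005 to 17092 CPM to 18345 to 20273 (log2 fold change 0.26, SE 0.06, adjusted p = 0.00302). By contrast mt-Nd1, from the same strand of the mitochondrial genome, was at 15650 to 17568 CPM and 16875 to 18258, overlapping (log2 fold change 0.06, SE 0.04, adjusted p = 0.438). The estimates below 0 were those of mt-Nd3 (log2 fold change -0.96), mt-Co3 (-0.79), mt-Atp6 (-0.56) and mt-Co2 (-0.44), all at 50.0 CPM or less in every library, and none passed (adjusted p = 0.130, 0.166, 0.534 and 0.685). Nuclear genes of oxidative phosphorylation were spread around 0, with 5 of 80 higher, 1 lower and a median of -0.01. Ndufa5, a subunit of complex I encoded in the nucleus, was the 1 of them that passed with each library left out, at 99.3 to 137 CPM in controls and 174 to 212 in mutants (log2 fold change 0.74, SE 0.12, adjusted p = 4.27e-06). Cytosolic ribosomal proteins likewise gave 5 rises and 3 falls among 81 genes, a median of -0.02.

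Matrix genes were among the falls. Of 22 tested genes of basement membranes and elastic fibres 12 were lower and 0 higher (median -0.46), and 9 of the 12 passed with each library left out. Eln, the elastin of Bruch's membrane and of vessel walls, was at 184, 199, 171 and 163 CPM in controls and at 93.4, 78.1, 80.0 and 75.9 in mutants (log2 fold change -1.13, SE 0.19, adjusted p = 4.61e-06). Col4a1, the main collagen chain of basement membranes, was at 134, 161, 165 and 143 CPM and at 60.4, 74.6, 73.3 and 70.3 (log2 fold change -1.11, SE 0.18, adjusted p = 5.42e-06). In both the groups were far apart. Hspg2 (perlecan), Nid2 (nidogen) and Col18a1, whose end fragment is endostatin, fell by 1.43, 0.74 and 0.53. The matrix genes at the highest levels moved less: Col8a1 fell from 3014 to 3437 CPM to 2646 to 2815 (log2 fold change -0.25), Timp3, an inhibitor of matrix proteases that sits in Bruch's membrane, from 2149 to 2459 to 1866 to 1993 (-0.28), and Sparc from 2206 to 2409 to 1846 to 2175 (-0.24). All were called (adjusted p = 0.000176, 9.82e-07 and 0.00768).

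Genes of secreted proteins, a receptor subunit and BMP targets were among the falls with small p. Apart from the BMP and TGF-beta genes and Mgp, which is in the fibroblast list, they belong to no list read here. Nog, a secreted antagonist of BMPs, was at 52.1, 16.8, 22.8 and 39.8 CPM in controls and at 3.44, 7.41, 6.25 and 13 in mutants (log2 fold change -2.15, SE 0.27, adjusted p = 4.37e-08). Id1 and Id3, direct targets of BMP signals, fell from 52.1 to 103 CPM to 28.3 to 51.6 and from 137 to 155 CPM to 72.2 to 120 (adjusted p = 0.00114 and 2.97e-05), so the antagonist and the targets were both lower. They were the 3 called genes of 19 in the BMP and TGF-beta list. Igfbp3 and Igfbp4, which bind insulin-like growth factors, fell from 42.1 to 65.8 CPM to 5.41 to 12.5 and from 201 to 224 CPM to 106 to 126 (adjusted p = 6.92e-06 and 4.70e-09). Ramp2, part of the adrenomedullin receptor, was at 154, 200, 123 and 141 CPM and at 80.6, 63.7, 41.1 and 61.3 (log2 fold change -1.33, SE 0.14, adjusted p = 3.13e-12). Mgp, an inhibitor of calcification, fell from 210 to 293 CPM to 109 to 130 (adjusted p = 2.32e-10), and Wfikkn2, a secreted protease inhibitor that binds myostatin, from 206 to 347 CPM to 127 to 169 (adjusted p = 6.43e-10). Upk3b, a uroplakin also found in mesothelium and named after its values were seen, fell from 56.3 to 70.4 CPM to 11.8 to 29.6 (adjusted p = 5.26e-09). None of these genes overlapped between groups.

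Markers of vessels and of glia differed between the same libraries. Of 13 tested endothelial markers 7 fell and 0 rose (median -1.56), and 5 of the 7 passed with each library left out. The list summed to 532 to 552 CPM in controls and 239 to 280 in mutants. Plvap, the diaphragm protein of fenestrated capillaries such as the choriocapillaris, was at 46.5, 42.7, 51.3 and 61.1 CPM and at 7.86, 6.98, 11.2 and 15.8 (log2 fold change -2.25, SE 0.35, adjusted p = 1.32e-06), and it overlaps a gene on the other strand. Emcn, a sialomucin of venous and capillary endothelium, and Mmrn2, a matrix protein of vessel walls, fell from 18.6 to 34.1 CPM to 2.84 to 10.8 and from 32.4 to 48.1 CPM to 3.57 to 8.93 (adjusted p = 0.000307 and 1.67e-05). The defining markers Pecam1 and Cdh5 did not pass, at 9.56 to 30.7 and 4.87 to 15.6 CPM for Pecam1 and 16.4 to 27.8 and 6.39 to 8.72 CPM for Cdh5 (adjusted p = 0.368 and 0.0517). Of 9 pericyte and smooth muscle markers 4 fell (median -1.31), 3 of them with each library left out, from a sum of 375 to 407 CPM to 178 to 232. Rgs5, the pericyte gene at the highest level, was at 191, 160, 184 and 170 CPM and at 78.6, 103, 100 and 76.3 (log2 fold change -0.98, SE 0.13, adjusted p = 2.73e-08). Acta2, the actin of smooth muscle, was at 102, 102, 102 and 135 CPM and at 51.1, 64.1, 61.6 and 77.6, with control replicate 4 above the other controls (log2 fold change -0.79, SE 0.14, adjusted p = 3.56e-05). Of 12 fibroblast markers 3 fell (median -0.55), 2 of them with each library left out, from a sum of 3298 to 3574 CPM to 2604 to 2863. Macrophage markers gave 0 calls among 13 by edgeR and 0 by DESeq2, with 1 at an unadjusted p under 0.05 (median -0.22), and summed to 428 to 474 CPM in controls and 372 to 408 in mutants.

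Myelin genes gave the lowest list median, -2.93, with 6 of 7 shared markers of myelinating glia lower and 0 higher, and a sum of 365 to 465 CPM in controls against 52.3 to 77.2 in mutants. Of these 6 falls, 4 passed with each library left out. Mbp, a protein of compact myelin, was at 159, 156, 194 and 217 CPM in controls and at 18.7, 27.9, 17.9 and 29.6 in mutants, wholly apart (log2 fold change -2.93, SE 0.19, adjusted p = 2.36e-23). Of 11 markers of oligodendrocytes, the central myelinating cells, 6 could be tested, with 2 called lower, 0 higher and a median of -0.50, and the list summed to 394 to 445 CPM in controls and 335 to 361 in mutants. The called genes were Mobp, a myelin protein, at 44.5, 32.5, 37.3 and 36.7 CPM in controls and 1 count over the mutants (adjusted p = 8.62e-13), and Sox10, a factor of neural crest and oligodendrocytes (log2 fold change -0.59). For Mobp the depth-scaled ratio of control to mutant was 350, with a 95% interval of 62.4 to 13884. Sox10 did not pass without control replicate 2 (adjusted p = 0.155) or without mutant replicate 2, 3 or 4 (0.0641 to 0.0870), with voom and quality weights (0.161) or in the 8 libraries alone (0.0851). Ermn and Gpr37 did not pass (log2 fold change -0.03 and 0.97, adjusted p = 0.884 and 0.155). In mutants 4 of the 11 had no count, among them Olig1 and Mog. Olig1, a transcription factor of the lineage, was at 13.7, 2.41, 10.8 and 3.72 CPM in controls, at least 25.6-fold higher against the floor of 3 counts over the mutant group, and Mog at 6.35, 0, 4.43 and 1.06 CPM, at least 10.4-fold. Gfap, an intermediate filament of astrocytes, fell from 48.8, 68.6, 77.8 and 57.4 CPM to 7.86, 8.29, 2.68 and 13 (log2 fold change -2.97, SE 0.44, adjusted p = 4.24e-07), but did not pass with the sex score (0.0713), while the whole astrocyte list summed to 683 to 948 and 548 to 599 CPM. Such cells lie in the optic nerve and its head, outside the RPE layer. The steepest called fall of all was that of Avp, the vasopressin precursor of hypothalamic neurons, at 63.2, 36.1, 33.5 and 12.2 CPM in controls and with 0 counts in every mutant library, so that controls were at least 121-fold higher against the floor of 3 counts over the mutant group (adjusted p = 2.92e-10). Of the 19 genes listed for hypothalamic and pituitary hormones, 5 could be tested, with Avp called lower and Lhx3 called higher. Oxt, the oxytocin precursor, overlapped at 1.27 to 19.9 and 0 to 5.23 CPM and did not pass (adjusted p = 0.236). Lens markers fell in 6 of 17 genes (median -0.89), from a sum of 335 to 380 CPM to 182 to 230. Of these 6 falls, 3 passed with each library left out and 3 with voom and quality weights. What these cells contributed to the falls in matrix, vascular, immediate early and iron genes was not tested.

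**Figure D4:**
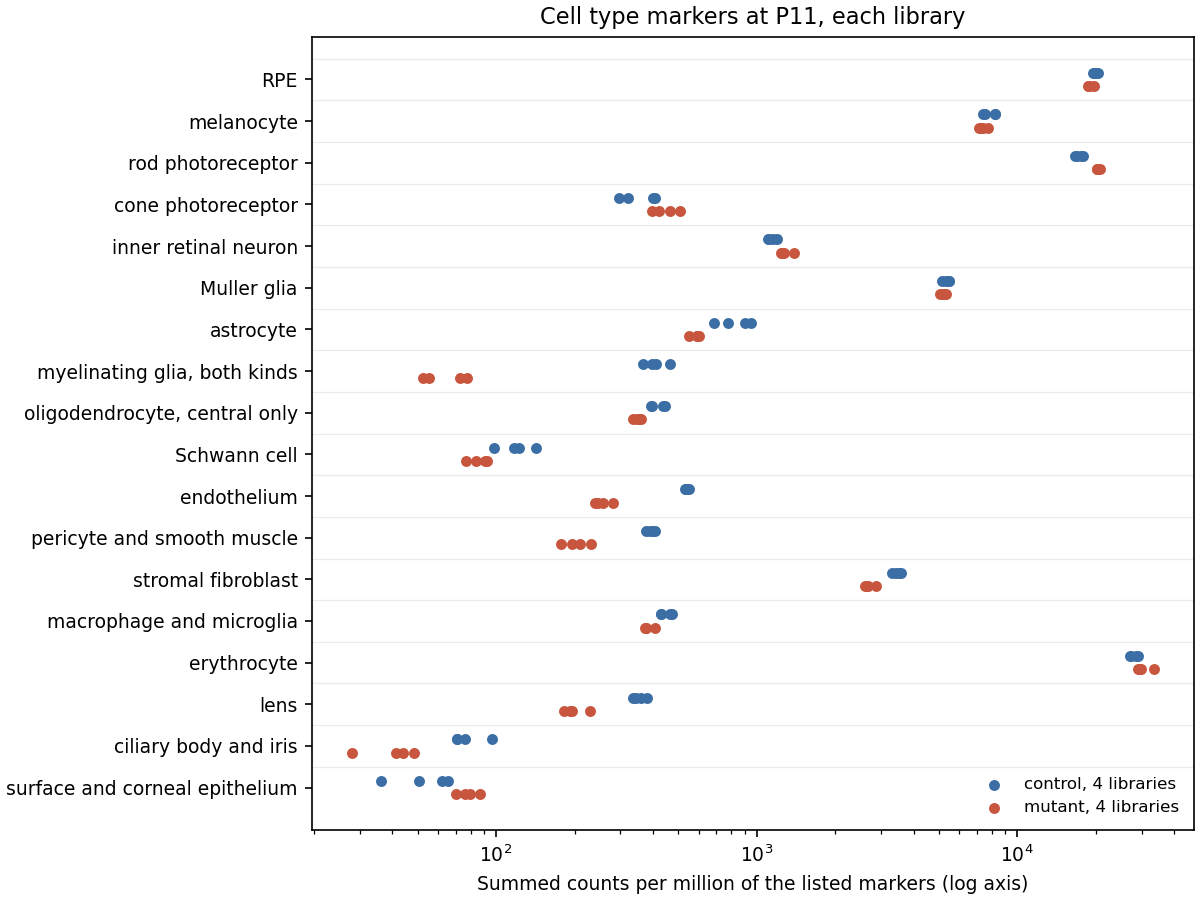
Summed CPM of the markers of 18 cell types on a log axis, 1 point per library. The 4 mutant libraries lie below the 4 control libraries for myelinating glia, endothelium, pericytes, fibroblasts and lens, and above them for rods and inner retinal neurons, while the RPE sums overlap.

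Of 18 genes of interferon response and antigen presentation 3 were called lower and 0 higher, with a median of -0.45. B2m, the light chain of class I molecules, was at 475, 493, 467 and 409 CPM in controls and at 358, 354, 323 and 311 in mutants (log2 fold change -0.46, SE 0.08, adjusted p = 5.85e-06). H2-Eb1, a class II chain, was at 6.62 to 17.5 and 2.23 to 3.93 CPM (adjusted p = 0.00369), and in the fit of the 8 libraries alone its adjusted p was 0.0829. The other called gene was Cd74, the class II invariant chain, which did not pass without mutant replicate 2 or mutant replicate 3 (adjusted p = 0.0568 and 0.124) or with the sex score (0.0753). With voom and quality weights neither H2-Eb1 nor Cd74 passed (0.128 and 0.0501).

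Some developmental regulators and neural genes were called higher. Vax2, a homeobox factor that patterns the ventral retina, was at 2.67, 4.81, 5.69 and 4.78 CPM in controls and at 13.8, 25.7, 24.6 and 24.8 in mutants, wholly apart (log2 fold change 2.33, SE 0.56, adjusted p = 0.00313), and it was the 1 called gene of 11 in dorsoventral patterning. It overlaps an antisense gene. Six3, a homeobox gene of the anterior neural plate and retina, was at 488, 673, 583 and 659 CPM and at 810, 792, 827 and 852 (log2 fold change 0.45, SE 0.08, adjusted p = 0.000176), but did not pass with voom and quality weights (0.0623). Otx2, which drives RPE and photoreceptor fate, was at 710 to 772 and 776 to 857 CPM and did not pass (adjusted p = 0.479). Scg2, a granin of neurosecretory granules, was at 11.0, 5.41, 20.9 and 38.3 CPM and at 56.0, 49.3, 54.0 and 49.9, with a wide spread in controls only (log2 fold change 1.47, SE 0.37, adjusted p = 0.00481). Tfap2b, a factor of amacrine cells, rose from 53.1 to 78.8 CPM to 121 to 146 (adjusted p = 0.000414). The sum of the 22 inner retinal markers, of which it is 1, was 1105 to 1194 and 1239 to 1397 CPM. Of the 19 tested, 2 were called higher, Tfap2b and Prkca, and 1 lower, Slc6a9 (log2 fold change -0.27). Their median was 0.20, with 5 estimates below 0, and 1 of the 2 rises passed with each library left out. Lhx3, a homeobox gene of pituitary, bipolar and motor neurons, was at 2.01, 0, 0 and 1.59 CPM and at 20.1, 6.54, 20.1 and 16.6 (adjusted p = 0.00703), but did not pass in DESeq2 (0.365) or with the sex score (0.523).

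At the lowest levels, keratins of stratified epithelium appeared in mutants. Krt5, a basal keratin, had 0 counts in controls and was at 7.37, 0.872, 1.79 and 2.84 CPM in mutants, which is at least 8.39-fold higher than a floor of 3 counts over the control group (adjusted p = 0.00415). Krt6a, a keratin of activated epidermis, had 0 counts in controls and was at 9.34, 10.0, 0.893 and 4.06 CPM in mutants, at least 16.2-fold higher on the same basis (adjusted p = 0.00135). With the sex score neither Krt5 nor Krt6a passed (0.131 and 0.164). Krt15, another basal keratin, had 1 count over the controls and 32 over the mutants, a depth-scaled ratio of 28.8 with a 95% interval of 4.81 to 1171. Krt5 and Krt15 lost their call with voom and quality weights (adjusted p = 0.0938 and 0.0989). Krt14 and Krt12, the partner of Krt5 and the keratin of corneal epithelium, had 0 counts in all 8 libraries. Ciart, a repressor in the circadian clock, was at 0 CPM in 3 controls and 1.27 in control replicate 3, and at 2.95, 3.49, 2.68 and 4.87 in mutants, a ratio of 14.4 with an interval of 3.67 to 124. Only these few counts carry it, and with voom it did not pass (adjusted p = 0.164).

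The P11 effect was set beside those at P29 and 3M, each from its own controls. Relative to the mean of the 2 later effects, the P11 effect was higher in 153 genes (1.24% of those tested) and lower in 264 (2.15%), and 281 of these 417 genes were also called at P11 itself. At P11, P29 and 3M the log2 fold change of Trf was -0.65, -0.16 and -0.03, and that of Ubb -0.99, -0.38 and -0.16, so both were lowest against controls at P11 (difference from the later mean -0.55 and -0.72, adjusted p = 1.24e-14 and 1.98e-08). Nr4a1 showed -2.06, -0.28 and -0.58, and Fosb -1.61, -0.76 and 0.72, so Fosb was lower in mutants at both early ages and higher at 3M (adjusted p = 5.22e-07 at 3M). Klf4 had the same signs as Fosb, with -1.0, -0.76 and 0.97. Myelin Mbp showed -2.93, -0.44 and -0.15 and pericyte Rgs5 -0.98, -0.05 and 0.60. In pigment genes the sign turned: Tyrp1 showed -0.48, 0.36 and 0.13 and Pmel -0.49, 0.32 and -0.07, with both the fall at P11 and the rise at P29 called.

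Other P11 changes had later effects near 0 or of the same sign. Pnisr showed 0.66, -0.09 and -0.11, Arid4b 0.72, -0.12 and 0.01, and Top1 0.50, -0.10 and -0.08, and their difference from the later mean passed in all 3 (adjusted p = 1.58e-07, 2.51e-06 and 1.18e-05). Sag, the rod arrestin, went the other way in size, at 0.36, 0.70 and 1.13 (difference -0.56, adjusted p = 9.44e-09). Rpe65 showed -0.32, -0.34 and -0.15, and its difference from the later mean was -0.08 (SE 0.05, adjusted p = 0.562). Of the 853 genes called at P11, 96 were called with the same sign at P29. The later groups differ in sex, and the P11 groups differ in the sex score, as given above. At 3M the log2 fold change of Xist was 8.55 and that of Ddx3y -1.78. With the sex score as a covariate the counts of genes whose effect differed were 19 upwards and 11 downwards. The difference between ages and the difference in sex cannot be told apart in most of these genes.

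**Figure D5:**
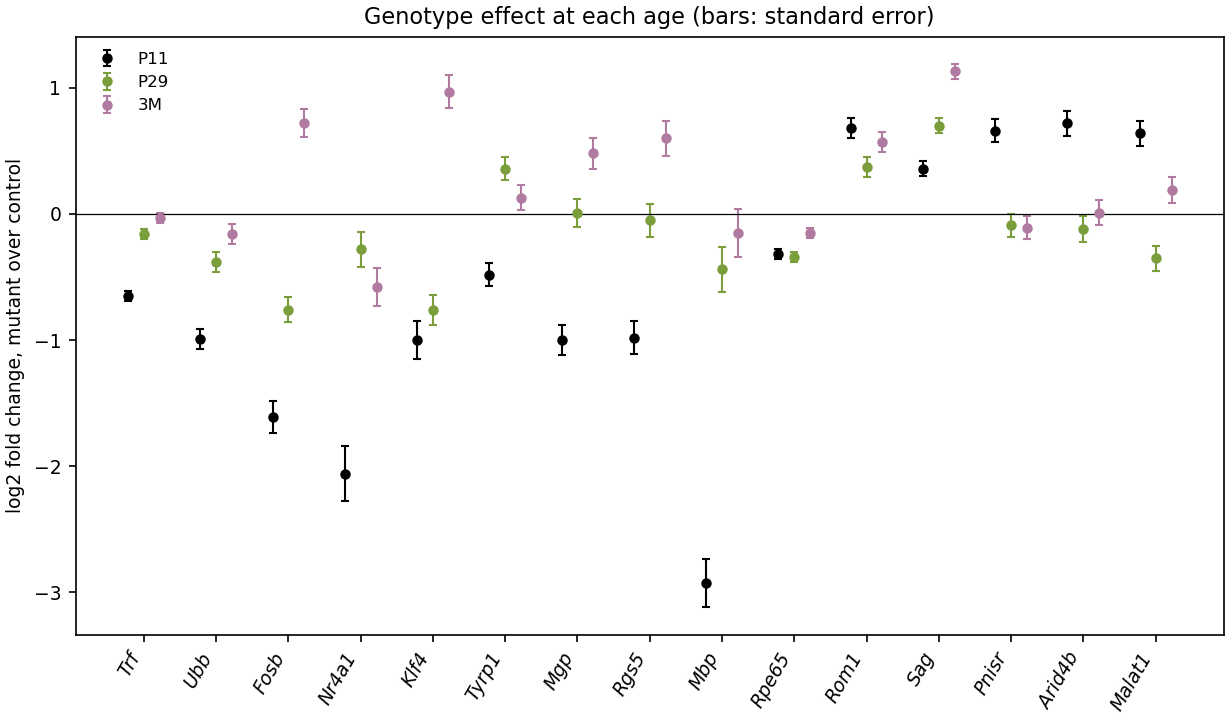
Log2 fold change of mutant over control with its standard error for 15 genes at P11, P29 and 3M, from 4 libraries per genotype and age. Trf, Ubb, Nr4a1 and Mbp lie lowest at P11, Tyrp1 is below 0 at P11 and above 0 at P29, and the fold change of Sag is higher at each later age.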

How the data were processed

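RNA of the 8 P11 libraries, and of the 16 later ones, was made into libraries by oligo(dT)-primed chemistry that yields 1 tag near the 3' end of a transcript, from 100 ng of total RNA, and read single-end over 100 bases, per the labels' protocols. STAR and the build mm10 are named without versions per the submitters' processing notes. The sources used here name no counting tool, annotation or strand setting. The deposited values are whole-number counts per gene, 1 file per library, for 31053 identifiers, of which 31011 were found in GENCODE vM21 (GRCm38). The 5 special entries that name no gene were left out of library sizes and tests. Reads in no feature made up 22.7% to 27.5% of the entries of a P11 library, multiply aligned reads 34.1% to 37.2% and ambiguous reads 0.192% to 0.218%, and 2 entries were at 0.

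Genotype and age, as labelled, set the groups. The test was the edgeR quasi-likelihood F-test (edgeR 4.0.16, R 4.3.3), fitted robustly to the 24 libraries of the 6 groups, 1 coefficient each, with TMM factors that were 1.03 to 1.05 at P11. The filterByExpr function kept 12303 genes, and a call needs an adjusted p (Benjamini-Hochberg) under 0.05. The later ages were set against P11 by a contrast of the P11 effect with the mean of the 2 later effects. Standard errors are the log2 fold change over the root of F. For library measures a two-sided exact permutation test used all 70 assignments. A fold against a group with 0 counts is a bound over a floor of 3 counts in the group, and 1 to 3 counts give a ratio with an exact 95% interval. Floors and intervals cover counting error only. On simulated counts for P11 with 12001 genes, edgeR recovered 21.1%, 48.6% and 78.9% of genes changed 1.5, 2 and 4-fold, with 10 false calls. The biological coefficient of variation at P11 was 23.4% in controls and 18.2% in mutants, against 12.9% to 17.9% in the later groups that share the fit. The 12 within-group pairs of P11 libraries each exceeded sampling noise, with 3.31 to 7.15 as chi-square over genes.

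Members and gene lists (31 pathways, 23 cell types) were chosen with earlier results of these data known. The rule for names took Ift20, the 15 largest rises and falls and the 15 with the smallest p in each direction (called, at least 5 CPM in a group, no overlap), the 10 called genes at the highest level, up to 4 genes of each list with the smallest p, every called gene of lists with 8 or fewer calls, and the 10 with the smallest interaction p. The text names part of these, mostly those that passed with each library left out. Some genes that the rule takes are not reported here. The text adds, after their values were seen, other members of the lists, defining markers of cell types, Upk3b, Meg3 and Ankrd12. Alternatives were median-of-ratios and total count scaling, DESeq2 1.42.0, voom of limma 3.58.1 with quality weights, no filter (19634 genes), 5 CPM in 4 libraries, the 8 libraries alone (11044 genes), a replicate block, a sex score as a covariate, a test against 1.5-fold, and leaving out each library.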

Additional observations from a re-analysis of the deposited data

Results flagged for a closer look

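In groups of 4 libraries, 1 library lay far from the other 3 in 18 of 286 groups checked, for the genes named and the library measures, and chance flags about 1 in 20 such groups. In controls, replicate 4 stood high for Malat1 (13010 CPM against 9578 to 9777), mt-Nd2 (18260 against 11673 to 12500) and Acta2 (135 against 102), replicate 1 stood low for Junb (40.4 against 76.6 to 81.2) and high for Nr4a2 (52.5 against 27.7 to 31.6) and Krt15 (0.334 against 0), and replicate 3 stood low for Otx2 (710 against 766 to 772) and high for Ciart (1.27 against 0). Control replicate 2 stood low for Cep83 (1.80 against 7.59 to 8.50). In mutants, replicate 3 stood low for Jun (60.7 against 93.4 to 95.8), Ahi1 (183 against 232 to 240) and Cep290 (328 against 351 to 353). Mutant replicate 4 stood low for Cst3 (4125 against 5200 to 5381) and Pecam1 (4.87 against 14.7 to 15.6) and high for Sparc (2175 against 1846 to 1894) and Hbb-bs (14993 against 13565 to 13630). Mutant replicate 1 stood low for Vax2 (13.8 against 24.6 to 25.7) and high for Mobp, with 0.491 against 0.

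The genotype effect at P11 differed from the mean of the effects at P29 and 3M, by the interaction test of edgeR, in these 9 of the 10 genes called at P11 with the smallest interaction p. The P11 effect lay below the later mean by a log2 difference of -2.64 for Mbp (adjusted p = 2.19e-15), -1.59 for Fosb (1.24e-14), -0.55 for Trf (1.24e-14), -1.24 for Mgp (1.98e-10), -1.0 for Cryab (5.97e-10), -0.56 for Sag (9.44e-09), -1.25 for Rgs5 (1.71e-08), -5.53 for Gfap (1.98e-08) and -0.72 for Ubb (1.98e-08). In 8 of the 9 the P11 effect itself was a fall, and in Sag it was the smaller rise.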

How the results depend on the processing

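The counts of genes higher and lower at P11 (401 and 452) stayed within 1.5 times under both other scalings, DESeq2, both filters, the 8 libraries alone and the sex score, with exceptions: voom with quality weights gave 325 and 298, and the test against 1.5-fold gave 4 and 31. Leaving out each library in turn gave 297 to 485 higher and 354 to 504 lower genes. The larger P11 effects (153 genes above and 264 below the later mean) became 97 and 204 with voom, 19 and 11 with the sex score, and 6 and 46 against 1.5-fold, and ran from 118 to 198 and from 223 to 294 with each library left out. The causes were not tested, beyond the stricter null of the 1.5-fold test. Of 111 called genes named here, 103 passed with each library left out, 91 with voom, 101 with the sex score, 110 in DESeq2 and 22 against 1.5-fold, and all kept their direction. The names were taken mostly from genes that passed with each library left out, so the 103 largely follows from that choice. Over all calls, 151 of the 401 higher and 208 of the 452 lower genes passed every time. The median log2 fold change of all genes was within 0.01 of 0 under the other scalings and DESeq2, and 0.03 with voom.

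The replicate block on the 8 libraries gave 318 higher and 308 lower genes, and within ages in all 24 libraries 146 and 254 for the difference from later ages. Same-numbered control and mutant libraries shared only a number: their deviations correlated at -0.0087 to 0.013, and 2 of 8 libraries correlated best with their own number.

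Library measures without 1 library each ran as follows, as mutant minus control. The total gene count differed by 77134 to 535970, the latter without control replicate 1, where its exact permutation p was 0.0286. The ambiguous share differed by -0.0200 to -0.0160 percentage points, with an exact permutation p of 0.0571 without mutant replicate 1 or mutant replicate 4. The mitochondrial share (2.78 to 3.28), the no-feature share (3.40 to 3.86), the multiply aligned share (-2.19 to -1.71) and the number of genes with a count (688 to 919) stayed past the threshold without each library. Depth limits genes under 1.90 CPM, which is 3 counts in the smallest library.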
